A study of Mus musculus with 8 samples.

Results

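*Rdx*, *Was*, *Capza1*, *Myl12a* and *Wasf1* are 5 genes whose products shape the actin cytoskeleton, and they were chosen by their peaks: at least 1 of 8 Cut & Tag peak lists of brown adipocytes holds a peak in each gene or at most 10 kb from it. They are 5 of the 21896 protein-coding genes of the RefSeq gene table used here. The peaks themselves chose the genes, so the presence of peaks at them is a description and was not tested. Cut & Tag sequences DNA that a transposase cuts next to an antibody bound on chromatin. Brown preadipocytes (BAC) came from *Cars2* flox/flox newborns and were immortalized by SV40 large T. After hygromycin selection they carried the empty retroviral vector (Vec, cell line BAC-V, genotype WT in the labels) or Cre recombinase (Cre, cell line BAC-Cre, genotype CarS2-KO), so that the floxed alleles and large T are common to both. The labels name them preadipocytes, and they were differentiated with IBMX, indomethacin, dexamethasone, insulin and T3 and profiled with antibodies against EBF2, a transcription factor of brown adipocytes, and H3K27ac, the histone acetylation found at promoters and enhancers in use. There were 2 libraries per antibody and cell type, with 1 peak list each. The labels do not say whether the 2 libraries came from separate cultures, and no clone is named.

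Actin filaments grow from their barbed ends and branch from the sides of older filaments. Branching is set off by the Arp2/3 complex, which proteins of the WASP and WAVE families switch on at membranes. Capping protein closes barbed ends, non-muscle myosin II pulls on filaments once its regulatory light chain is phosphorylated, and the ezrin, radixin and moesin proteins tie the cortical filaments to the plasma membrane. Preadipocytes carry stress fibres that are taken down as they round up and fill with lipid, and actomyosin tension is one of the inputs to the thermogenic programme of brown adipocytes.

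EBF2 peaks lay in or at most 10 kb from 2 of the 5 genes in Vec replicate 1 (*Rdx* and *Was*), 0 in Vec replicate 2, 1 in Cre replicate 1 (*Was*) and 0 in Cre replicate 2. Among all protein-coding genes, this was true of 5.12%, 3.85%, 5.17% and 4.95% in the same order. An H3K27ac peak lay at 2 of the 5 in Vec replicate 1 (*Was* and *Capza1*), at 1 in Vec replicate 2 and 1 in Cre replicate 1 (*Was* in both), and at 4 in Cre replicate 2 (*Was*, *Capza1*, *Myl12a* and *Wasf1*), beside 6.93%, 5.6%, 5.8% and 7.19% of all protein-coding genes. Nothing is read from these counts, because the same peaks chose the genes. For neither antibody did any of the 5 genes (0 of 5) have a peak in both libraries of one cell type and in neither library of the other. Over all protein-coding genes, EBF2 peaks in the 2 Vec lists alone occurred at 0.0457% and in the 2 Cre lists alone at 0.132%, and for H3K27ac these shares were 0.178% and 0.1%. With 2 libraries against 2, an exact permutation test has 6 arrangements and cannot give a two-sided p below 0.333, and no test of Vec against Cre was made at these genes.

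**Figure D1:**
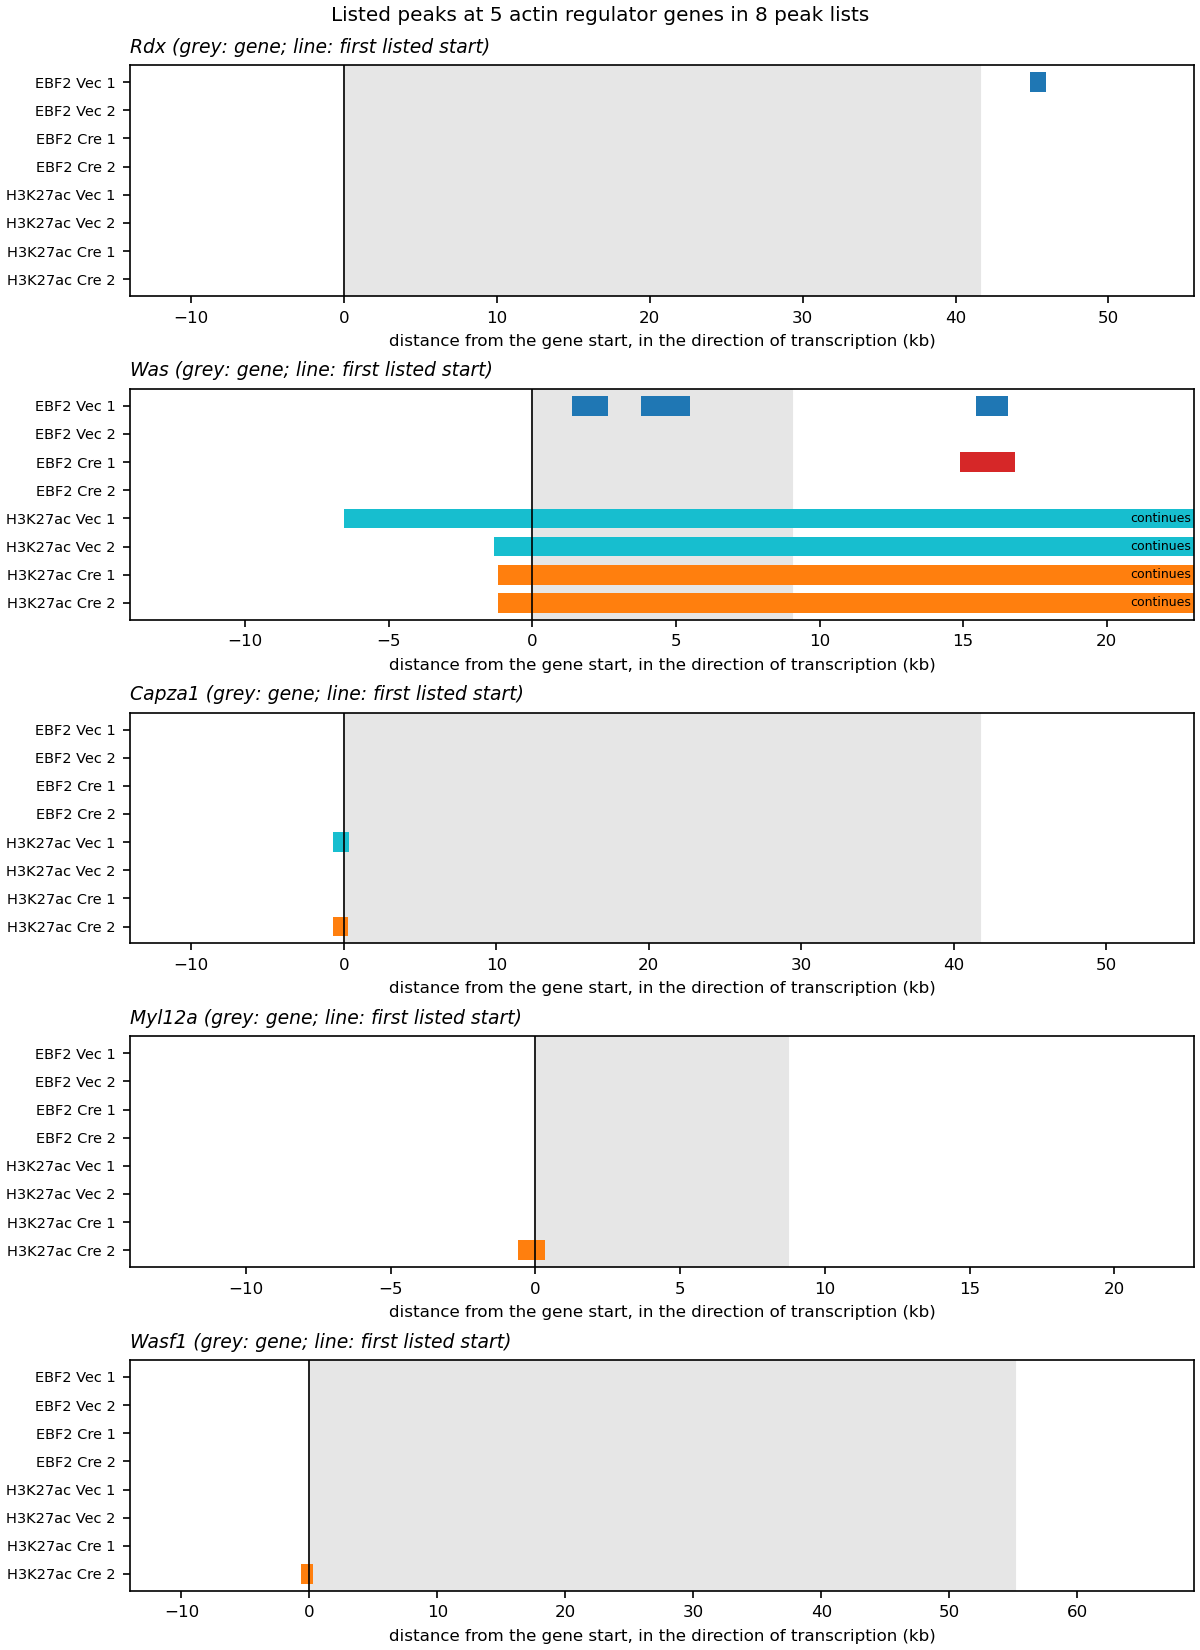
Peaks at each of the 5 genes in the 8 lists, drawn against the distance in kb from the first listed start in the direction of transcription, with the gene shaded, Vec lists in blue or cyan and Cre lists in red or orange. The H3K27ac peaks of *Capza1*, *Myl12a* and *Wasf1* sit on the gene start, those at *Was* span the whole gene and run on beyond the plotted range, and the 1 EBF2 peak near *Rdx* lies 3.29 kb past its end.

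The sequences just upstream of 3 of these genes are shown because an H3K27ac peak lay across them: a peak of under 1 kb at *Wasf1* and *Myl12a*, and the wide region at *Was*. They are RefSeq promoter sequences of build GRCm38.p6, cut so that they end at the last base before the annotated gene and run 5′ to 3′ on the strand of the gene. Capitals mark a GC box (GGGCGG), an E-box (CACGTG) or an ETS core (GGAAGT), on either strand.
*Wasf1*, chr10:40883284-40883479, plus strand: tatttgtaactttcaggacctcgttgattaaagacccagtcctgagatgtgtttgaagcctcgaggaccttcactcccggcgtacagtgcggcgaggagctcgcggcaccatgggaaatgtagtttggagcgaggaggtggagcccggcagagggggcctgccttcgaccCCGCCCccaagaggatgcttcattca
*Myl12a*, chr17:71002534-71002783, minus strand: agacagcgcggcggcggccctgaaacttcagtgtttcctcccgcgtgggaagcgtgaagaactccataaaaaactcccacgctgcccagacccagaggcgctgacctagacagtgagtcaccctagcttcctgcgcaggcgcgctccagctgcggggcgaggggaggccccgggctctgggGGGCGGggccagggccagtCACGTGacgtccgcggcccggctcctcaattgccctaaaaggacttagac
*Was*, chrX:8090492-8090741, minus strand: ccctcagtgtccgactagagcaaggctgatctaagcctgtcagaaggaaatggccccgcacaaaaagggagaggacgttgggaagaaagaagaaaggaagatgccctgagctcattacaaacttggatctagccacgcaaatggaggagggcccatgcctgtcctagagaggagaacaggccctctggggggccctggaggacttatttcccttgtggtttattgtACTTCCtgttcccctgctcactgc

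The *Wasf1* and *Myl12a* stretches are rich in CpG and the *Was* stretch is not. In the full RefSeq windows, from 250 bases before the start to 50 after it, CG occurred 27 times at *Myl12a*, 21 times at *Capza1*, 17 times at *Wasf1* and 5 times at *Was*, against a median of 7 over 32851 promoter windows. *Rdx* has 2 listed starts, whose windows held 3 and 18. The promoter windows with a start under an H3K27ac peak of 2 kb or less were also counted. In Cre replicate 2 there were 239, with a median of 24 CG (from 0 to 57). In Vec replicate 1 there were 193, with a median of 26 (from 1 to 52). The windows of all 5 genes lie within both ranges, so nothing is read from this. The GC box was found in the windows of *Wasf1*, *Myl12a*, *Capza1* and the second *Rdx* start, and in 35.7% of all windows. The E-box of *Myl12a* begins 50 bases before the start, and 7.15% of all windows hold one. An ETS core begins 24 bases before the *Was* start and another at the start itself, and the windows of *Capza1* and *Rdx* hold it too, as do 23.8% of all. CCAAT was found once, on the reverse strand at the first base of the annotated *Wasf1* gene, and is in 37.4% of all windows. The window of *Wasf1* is set on its listed start at 40883534, 54 bases inside the annotated gene. The TATA box (TATAAA, in 13.6%) and the CArG box that serum response factor binds (in 1.63%) were in none of the windows of the 5 genes. The core of the EBF motif was searched as TCCCNNGGG, alone and followed by A, and is in 6.56% and 0.904% of all windows but in none of those of the 5 genes. Both strands were searched, and the absence of a match says only that these letters are not in this window.

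*Wasf1* encodes WAVE1, which relays Rac signals to the Arp2/3 complex at the leading edge. The gene (gene ID 83767) lies on the plus strand of chromosome 10 from 40883480 to 40938569. In H3K27ac Cre replicate 2 a peak of 938 bp, from 40882865 to 40883802, ran from 669 bp before the listed start (40883534) to 268 bp after it, with a score of 59, the 244th highest of 902 in that list, and a fold of 1.87 over the background of the caller. The other 7 lists held nothing close: the nearest H3K27ac peak was 1.15 Mb away in both Vec lists and 9.65 Mb in Cre replicate 1, and the nearest EBF2 peak was between 5.54 and 18.5 Mb away. The peak also lies over the start of *Cdc40*, a splicing factor gene on the other strand that begins 391 bp from the *Wasf1* start, so the lists cannot assign it to either gene.

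*Myl12a* encodes a regulatory light chain of non-muscle myosin II. The gene (gene ID 67268) lies on the minus strand of chromosome 17 from 70993793 to 71002533. Its 1 peak was again in H3K27ac Cre replicate 2, 943 bp wide from 71002207 to 71003149, reaching from 616 bp before the start to 326 bp after it, with a score of 57 (rank 251 of 902) and a fold of 1.49. No other list came nearer than 11.98 Mb, which is the gap in H3K27ac Vec replicate 1, and the 4 EBF2 lists had their nearest peaks 13.5 to 34.9 Mb away. *Myom1*, a muscle M-band gene, is annotated 798 bases beyond the start of *Myl12a*, and the peak ends 183 bp short of it. *Myl12b*, the neighbouring gene for the closely related light chain, had no peak within 10 kb; this same peak is its nearest, 11.7 kb away.

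*Capza1* encodes an alpha subunit of capping protein. The gene (gene ID 12340) lies on the minus strand of chromosome 3 from 104822781 to 104864505, and a peak over its start was listed once in each cell type. In H3K27ac Vec replicate 1 it was 1037 bp wide (104864171 to 104865207), from 702 bp before the start to 334 bp after it, with a score of 48 (rank 344 of 836) and a fold of 1.49. In H3K27ac Cre replicate 2 it was 977 bp wide (104864218 to 104865194), with a score of 55 (rank 256 of 902) and a fold of 1.75. These 2 peaks have nearly the same borders, and the other library of each cell type had none: the nearest H3K27ac peaks there were 6.26 Mb away in Vec replicate 2 and 6.24 Mb in Cre replicate 1. In the EBF2 lists, peaks came no nearer than 1.94 Mb. *St7l* starts on the other strand at the very next base, 1 bp from the start of *Capza1*, and is covered by the same peaks.

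These 4 peaks at gene starts were set beside the others of their lists. In Cre replicate 2, 172 peaks of 2 kb or less lay over a listed start of a protein-coding gene, with a median width of 1036 bp (918 to 1879) and a median score of 34. The peaks of *Wasf1*, *Myl12a* and *Capza1* ranked 33rd, 35th and 37th of these by score and 47th, 147th and 69th by fold. In Vec replicate 1 there were 134, with a median score of 45.5, and *Capza1* ranked 59th by score and 90th by fold. The peak covered starts on both strands at *Wasf1* and *Capza1*, as did 37 of the 172 (21.5%) in Cre replicate 2 and 27 of the 134 (20.1%) in Vec replicate 1. Which library holds a peak at *Wasf1*, *Myl12a* and *Capza1* moved with how many such peaks the library has at all: a start was covered at 0.92% of 17491 protein-coding genes in Vec replicate 1 and 1.2% in Cre replicate 2, but at 0.154% in Vec replicate 2 and 0.274% in Cre replicate 1. The part of this in the presence of the 3 peaks was not tested. Of the 161 genes covered in Vec replicate 1 and the 210 in Cre replicate 2, 72 were shared (44.7% and 34.3%), *Capza1* among them. The 48 genes of Cre replicate 1 shared 31 with Cre replicate 2 (64.6% of the smaller list and 14.8% of the larger).

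**Figure D2:**
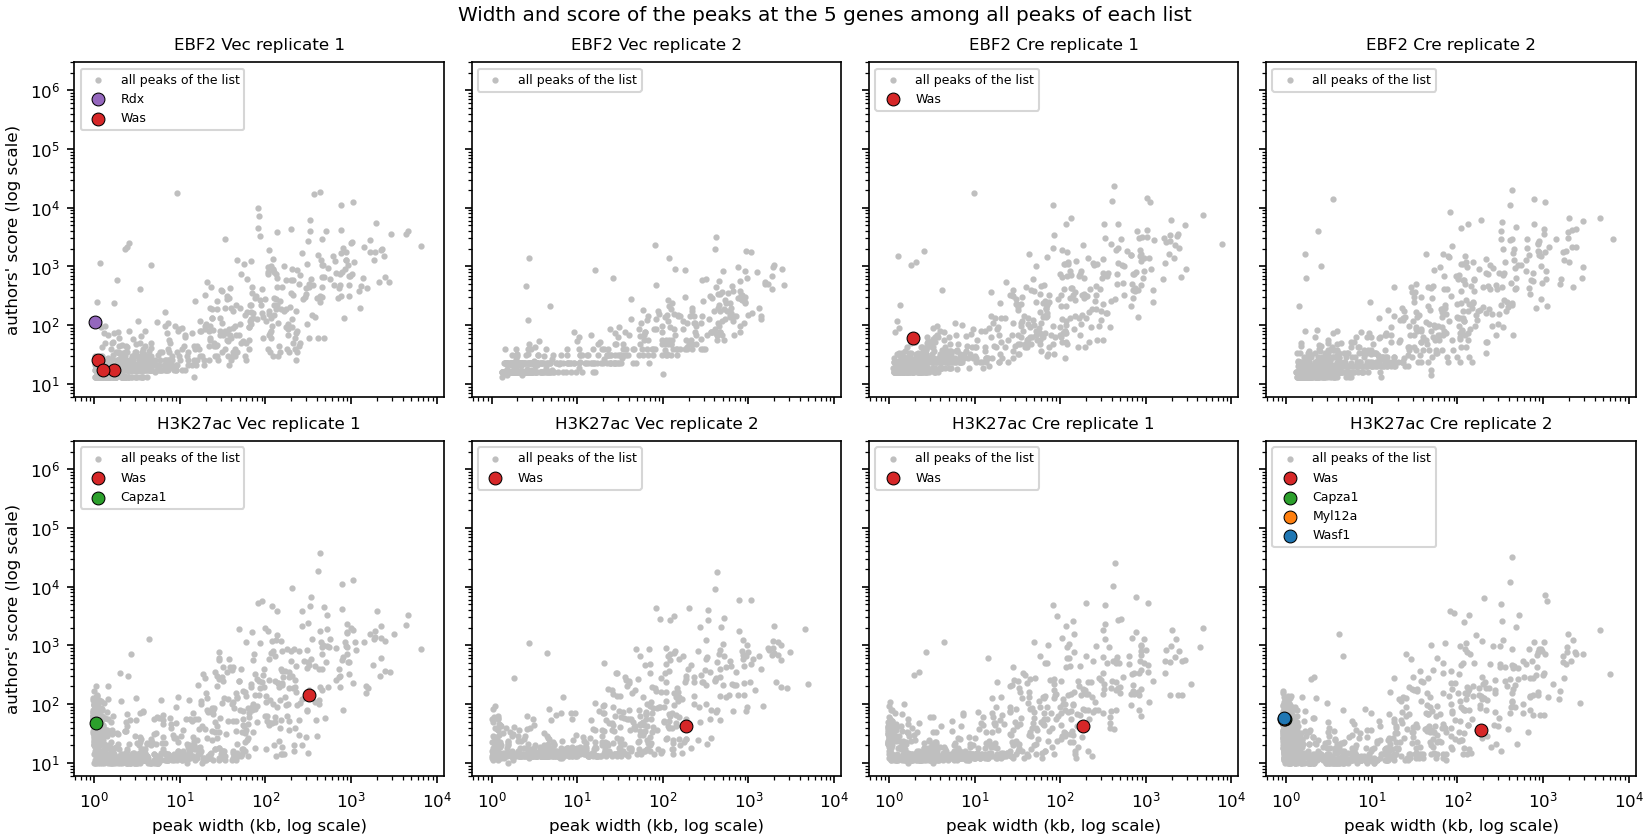
Each grey point is 1 peak, with its width in kb and the authors' score on log axes, in 1 panel per list; coloured points are the peaks at the 5 genes. The H3K27ac peaks of *Capza1*, *Myl12a* and *Wasf1* fall in the column of peaks about 1 kb wide, which is dense in Vec replicate 1 and Cre replicate 2, where the points of the 3 genes overlap, while *Was* lies among the wide regions of 187 kb and more.

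*Was* encodes the Wiskott-Aldrich syndrome protein, which activates the Arp2/3 complex below Cdc42 and is known from blood cells. The gene (gene ID 22376) lies on the minus strand of chromosome X from 8081466 to 8090491, and it was the 1 gene of the 5 with peaks of both antibodies, in 6 of the 8 lists. All 4 H3K27ac lists covered it whole with a single wide region: 326 kb in Vec replicate 1 (7770584 to 8097035), 187 kb in Vec replicate 2 (7904345 to 8091811), 187 kb in Cre replicate 1 (7904345 to 8091693) and 187 kb in Cre replicate 2 (7904451 to 8091678). The scores were 146, 43, 42 and 36 and the folds 3.19, 2.60, 2.57 and 2.42 in the same order. Scores and folds depend on the depth of a library, so they rank a peak in its own list and were not compared between lists; the ranks were 170 of 836, 234 of 646, 246 of 673 and 368 of 902.

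The upstream border of the region lay close to the *Was* start in 3 of the lists, at 1320 bp before it in Vec replicate 2, 1202 bp in Cre replicate 1 and 1187 bp in Cre replicate 2, and at 6544 bp in Vec replicate 1. In the gene and the 10 kb on either side, H3K27ac peaks covered 25570 and 20346 bases in Vec and 20228 and 20213 in Cre. Both Vec values are above both Cre values, but Vec replicate 2 exceeds Cre replicate 1 by less than the Vec libraries differ from each other. Of the 1089 protein-coding genes with an H3K27ac peak in all 4 lists, 5.33% had more bases covered in both Vec lists than in both Cre lists and 4.41% had fewer. The span common to the 4 lists, 187 kb, holds 8 protein-coding genes, *Timm17b*, *Pcsk1n*, *Eras*, *Hdac6*, *Gata1*, *Glod5*, *Suv39h1* and *Was*. The region is thus not particular to *Was*. *Pqbp1* and *Slc35a2* lie within 10 kb of it in all 4 lists, and the longer region of Vec replicate 1 also reaches *Pim2*, *Otud5*, *Kcnd1*, *Gripap1* and *Tfe3*.

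EBF2 peaks at *Was* were small and lay in 1 library of each cell type. Vec replicate 1 held 3: one from 8087842 to 8089100 (1259 bp) and one from 8085003 to 8086710 (1708 bp) inside the gene, both with a score of 17 (rank 498 of 724), and one from 8073949 to 8075051 (1103 bp), 6.42 kb past the end of *Was*, with a score of 26. Cre replicate 1 held 1, from 8073693 to 8075602 (1910 bp), 5.86 kb past the end, with a score of 60 (rank 257 of 660). The last peak of Vec replicate 1 and the peak of Cre replicate 1 overlap, and both lie over the start of *Suv39h1*, the gene of a histone methyltransferase on the same strand, which is closer to them than *Was* is. Vec replicate 2 and Cre replicate 2 held none near *Was*, with their nearest peaks 970 and 395 kb away. In the common span of the H3K27ac region, EBF2 Vec replicate 1 had 18 peaks covering 19.2% of the bases, Cre replicate 1 had 8 covering 9.91%, and the other 2 lists had 0. The peak names of EBF2 Cre replicate 1 contain Cars2AKO, which elsewhere in the study means the adiponectin-Cre knockout mouse. Its label gives BAC-Cre, and the label was followed. Without this library, no EBF2 peak was listed at *Was* in Cre cells.

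*Rdx* encodes radixin, one of the linkers between cortical actin and membrane proteins. The gene (gene ID 19684) lies on the plus strand of chromosome 9 from 52047150 to 52088738, and its start lies in *Gm6981*, a transcribed pseudogene. Only EBF2 Vec replicate 1 held a peak near it, 1024 bp wide from 52092027 to 52093050, which lies 3.29 kb past the end of the gene and 44877 bp from its start. Its score of 115 was the 191st of 724 and its fold 2.07. No other protein-coding gene lies within 10 kb of this peak. In 6 of the other 7 lists the nearest peak was 803 to 809 kb away, and in EBF2 Cre replicate 2 it was 16.97 Mb away. No H3K27ac list had a peak at *Rdx*.

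The fold and p-value of a narrow peak fix the coverage at its summit and the background that the caller set against it, because the fold is (k + 1) / (b + 1) and the p-value the chance that a Poisson count of mean b exceeds k. Near *Rdx* the coverage came to 124 over a background of 59.3. That background is 8.04 times the lowest in the list (7.38), at which 82.4% of the 216 EBF2 peaks of 2 kb or less of Vec replicate 1 were called, and it was the 7th highest of them. Inside *Was* the 2 peaks had a coverage of 17 over 7.38, beside a lowest called coverage of 16 at that background. Past the end of *Was*, the coverage was 23 over 9.78 in Vec replicate 1 and 28 over 8.55 in Cre replicate 1. The 2 peaks inside *Was* are therefore 1 unit above the lowest coverage that was called, whereas the *Rdx* peak stands in a stretch of high coverage on a smaller ratio, 2.09 times its background. At the lowest background, a coverage of 18 was needed in Cre replicate 1 (background 8.26) and in Cre replicate 2 (8.76), and of 6 in Vec replicate 2 (1.39). The background of Vec replicate 2 is well below the others. These levels hold at the lowest background of each list, and more coverage is needed where the background is higher, as it was near *Rdx* in Vec replicate 1. The coverage at *Rdx* and *Was* in lists without a peak there is unknown, and absence from a list is not absence of binding.

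**Figure D3:**
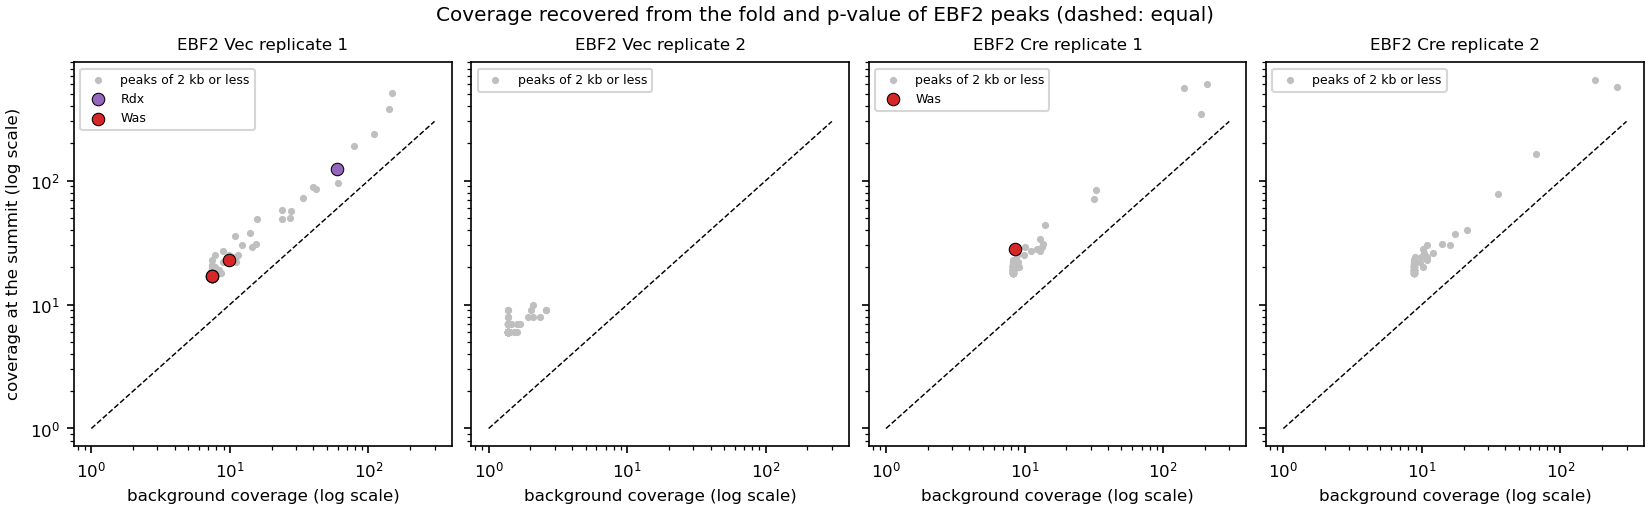
Coverage at the summit against background coverage, both computed back from the deposited fold and p-value and drawn on log axes, for EBF2 peaks of 2 kb or less, with the dashed line at equality. The *Rdx* peak (124 over 59.3) stands among the few with high background, and the *Was* peaks sit at low background, at a coverage of 17 and 23 in Vec replicate 1, where 2 points coincide, and 28 in Cre replicate 1.

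The 5 genes were set beside a list of 170 actin cytoskeleton genes, all found in the gene table. In any of the 8 lists, 8 of the 170 had a peak within 10 kb, the 5 above and *Jmy*, *Ppp1cb* and *Cdc42ep5*. EBF2 peaks lay at 2, 0, 1 and 0 of the 170 (1.18%, 0%, 0.588% and 0% in Vec replicates 1 and 2 and Cre replicates 1 and 2) and H3K27ac peaks at 3, 1, 1 and 7 (1.76%, 0.588%, 0.588% and 4.12%), in each list below the share of all protein-coding genes given above. Most of that share comes from wide regions. With peaks of 10 kb or less, EBF2 peaks lay at 2, 0, 1 and 0 of the 170 beside 0.68%, 0.42%, 0.58% and 0.416% of all genes, and H3K27ac peaks at 2, 0, 0 and 6 (1.18%, 0%, 0% and 3.53%) beside 1.83%, 0.749%, 0.863% and 2.34%. Over gene starts, H3K27ac peaks of 2 kb or less covered 2, 0, 0 and 4 of the 139 actin genes with a listed start (1.44%, 0%, 0% and 2.88%), beside 0.92%, 0.154%, 0.274% and 1.2% of all genes with one. An EBF2 peak of this width lay over the start of none of the 139, and over 0.0572%, 0.0172%, 0.04% and 0.0229% of all listed genes. The 170 genes include the 5 that the peaks chose, which raises the counts of the list. *Rdx* and *Was* supply all of its EBF2 counts. *Capza1* is counted over starts in H3K27ac Vec replicate 1, and *Capza1*, *Myl12a* and *Wasf1* in Cre replicate 2. No excess over all genes is therefore read from these shares.

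**Figure D4:**
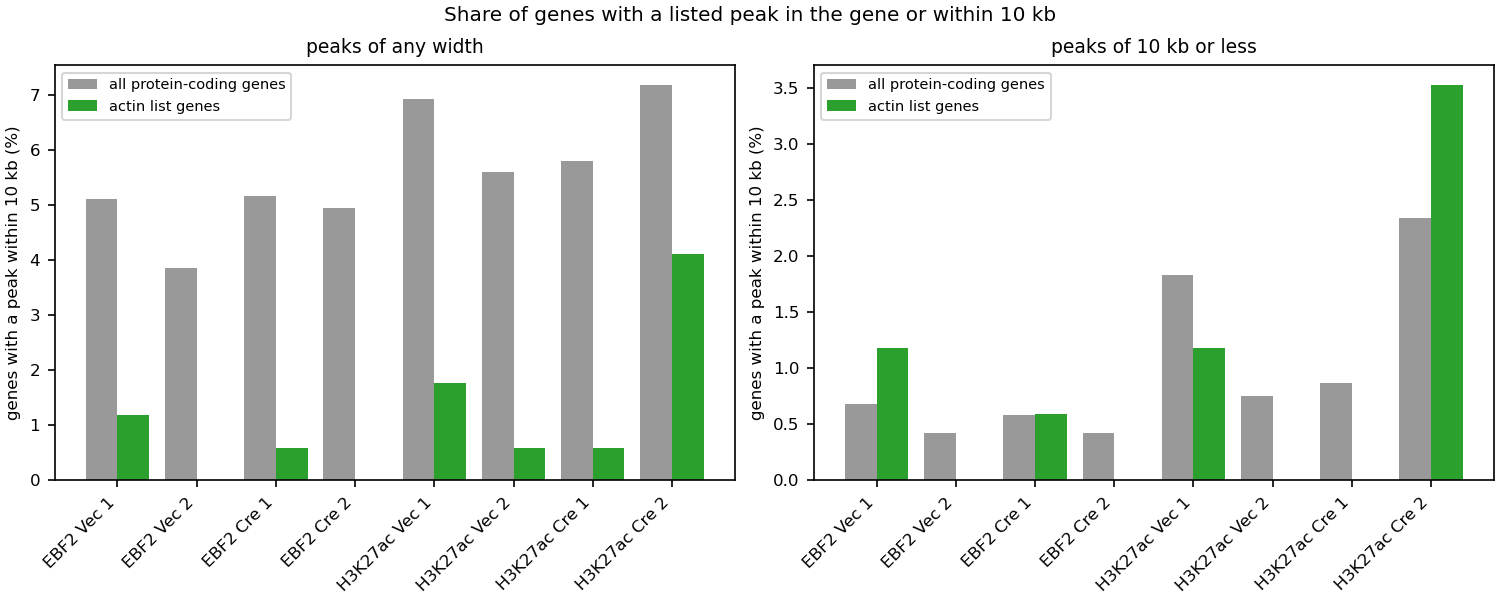
Bars from 0 give the percentage of genes with a listed peak in the gene or within 10 kb in each list, in grey for all 21896 protein-coding genes and in green for the 170 actin genes, with peaks of any width on the left and of 10 kb or less on the right. The green bars are lower in all 8 lists on the left, and on the right they are highest in H3K27ac Cre replicate 2, at 3.53% beside 2.34%. The green bars include the 5 genes that the peaks chose. Of these, *Capza1*, *Myl12a* and *Wasf1* are in the bar of 3.53%, so no excess is read from it.

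By role and over all 8 lists, peaks of any width fell on 3 of 8 nucleation promoting factors (*Was*, *Wasf1* and *Jmy*), 1 of 17 capping genes (*Capza1*), 1 of 6 ERM linkers and partners (*Rdx*) and 2 of 13 genes of non-muscle myosin II and its regulation (*Myl12a* and *Ppp1cb*). Over all protein-coding genes, 8.88% had a peak of any width in at least 1 of the 8 lists and 4.59% one of 10 kb or less. No concentration on a role is read from these counts, since the peaks chose *Was*, *Wasf1*, *Capza1*, *Rdx* and *Myl12a*. None lay at the 10 subunits of the Arp2/3 complex, the 11 partners of WAVE and WASP, the 6 actins, the 16 formins and other nucleators, the 15 severing and monomer-binding genes, the 31 crosslinkers, or the 11 genes of adhesion and actin-sensing transcription, and at the share of 8.88% nothing is read from a 0 in groups of this size. *Jmy*, which both nucleates filaments and activates the Arp2/3 complex, had a peak of 958 bp in H3K27ac Cre replicate 2 (score 40, rank 333 of 902). This peak, from 93498671 to 93499628, lay inside the gene close to its border at 93499808, and over no listed start of *Jmy*. *Ppp1cb*, a catalytic subunit of the phosphatase that acts on myosin light chain, had one of 951 bp over its start in the same list (score 15, rank 646 of 902). *Cdc42ep5*, a Cdc42 effector, had one of 1893 bp over its start in Vec replicate 1 (score 21, rank 517 of 836). It had another of 982 bp in Cre replicate 2 (score 24, rank 500 of 902), 1496 bp outside the gene. Thus 6 of the 7 actin genes with an H3K27ac peak in Cre replicate 2 had one of about 1 kb. None of the 6 was listed in Cre replicate 1, where peaks of 10 kb or less lie at 0.863% of all genes, so nothing is read from that absence.

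The closest relatives of the 5 genes had no peak within 10 kb in any list. *Myl12b* came nearest, at 11.7 kb in H3K27ac Cre replicate 2, and *Wasf3*, which encodes another WAVE protein, had peaks 16.1 to 27.7 kb away in all 8 lists. *Myl12b* and *Wasf3* were thus just outside the 10 kb limit, and *Rdx* at 3.29 kb and *Was* at 5.86 kb in EBF2 Cre replicate 1 were inside it without an overlap. The nearest peak of any list was 87.4 kb from *Ezr*, 138 kb from *Msn*, 843 kb from *Wasl* and 960 kb from *Wasf2*. Among the capping protein genes it was 3.59 Mb from *Capza2*, 6.57 Mb from *Capza3* and 219 kb from *Capzb*, and among the light chain genes 2.42 Mb from *Myl9* and 187 kb from *Myl6*.

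Genes with the same presence and absence in all 8 lists were common for some of the 5 and few for others. *Wasf1* and *Myl12a* each shared theirs, a peak in H3K27ac Cre replicate 2 alone, with 267 other protein-coding genes, each other included, *Capza1* with 79, *Was* with 38 and *Rdx* with 7. Without genes that share a peak with *Was*, its number was 24. Ordered by how close the bases covered per list were (the sum over the 8 lists of the difference in log10), *Lrrfip2*, *Pitpnc1* and *Psmd12* were nearest to *Wasf1*, *Gli2*, *Metap2* and *Pign* to *Myl12a*, and *Asb3*, *Erlec1* and *Rb1cc1* to *Capza1*. For *Was* these were *Praf2*, *Ifit1bl1* and *Wdr45*, of which *Praf2* and *Wdr45* lie on the same part of chromosome X, and for *Rdx* they were *Gm21316*, *Wdr60* and *Cpq*.

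The lists hold too few genes to check the cell type. None of 14 genes of mature brown adipocytes, among them *Ucp1*, *Cidea*, *Pparg*, *Adipoq* and *Fabp4*, had a peak within 10 kb in any of the 8 lists, and neither did any of 8 preadipocyte and fibroblast, 10 haematopoietic, 5 endothelial or 6 skeletal muscle genes. As a single list had a peak at no more than 7.19% of all protein-coding genes, these counts of 0 neither support nor go against the label. *Gata1*, a blood cell regulator that shares the wide H3K27ac region with *Was*, was not among these markers. The lists held 533 to 724 EBF2 peaks and 646 to 902 H3K27ac peaks, and the number of reads behind them is unknown.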

How the data were processed

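The authors deposited 1 peak list per library, called on each library by itself. The submitters' processing notes name bcl2fastq 2.17, Trimmomatic 0.33, HISAT2 2.2.1, MACS2 2.2.7 and mm10. The control library, duplicate and multiply mapped reads and the caller's threshold are not given in the sources used here. The deposited score is the whole part of 10 times the −log10 q-value. The authors also deposited a fold, which is a ratio to the caller's background, and −log10 values of p-value and q-value, given as means over a region for broad H3K27ac peaks. Starts were made 1-based. Peaks were matched to RefSeq genes of GRCm38.p6 (21896 protein-coding, all 5 genes matched by symbol) by the gap to the gene, at most 10 kb. Strand and starts were taken from RefSeq promoter windows (17491 genes). The 5 genes, the actin list and the marker lists were chosen with earlier results of these data known, and the GC box, E-box, ETS, CCAAT, TATA and CArG searches after the peaks were seen. Named were the 5 genes, other actin genes with a peak, close relatives, genes sharing a peak, and 3 genes of the same pattern for each. The count for 1 role of the actin list is not reported here. No test was made of peak presence. The gap and coverage functions were tested on simulated data. Alternatives were windows of 3 and 50 kb, peaks of 10 kb or less, the antibody's median score as a minimum, equal numbers of peaks, 50% reciprocal overlap, and leaving out each library. The scripts ran in Python 3.11.15 with pandas 2.3.3, numpy 2.4.6, matplotlib 3.10.9 and scipy 1.17.1.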

Additional observations from a re-analysis of the deposited data

How the results depend on the processing

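Counts of peaks at the 5 genes are small, so that 1 library or 1 setting moves them. With all libraries, 2 of the 5 genes had an EBF2 peak in either Vec list and 1 in either Cre list, and for H3K27ac these were 2 in Vec and 4 in Cre. Counting peaks present in both lists gave 0, 0, 1 and 1, and the same numbers over the 170 actin genes. Leaving out 1 library at a time gave 0 to 2 for EBF2 Vec, 0 to 1 for EBF2 Cre, 1 to 2 for H3K27ac Vec and 1 to 4 for H3K27ac Cre. Over the actin genes, where the counts were 2, 1, 3 and 7, this gave 0 to 2, 0 to 1, 1 to 3 and 1 to 7. The libraries that carry the peaks are replicate 1 for EBF2 Vec, EBF2 Cre and H3K27ac Vec and replicate 2 for H3K27ac Cre. A window of 3 kb dropped *Rdx*, leaving 1 gene for EBF2 Vec, and left 0 for EBF2 Cre, with the same counts over the actin genes. A window of 50 kb changed no count of the 5 genes and gave 4, 4, 7 and 11 actin genes. With the median score of the antibody as a minimum (29 for EBF2 and 27 for H3K27ac), EBF2 Vec came to 1 for both lists of genes, *Rdx*. With peaks of 10 kb or less, H3K27ac Vec came to 1 of the 5 genes and H3K27ac Cre to 3. Over the actin genes these were 2 and 6. Regions at the 5 genes with a peak in more than 1 list numbered 1 for EBF2 and 2 for H3K27ac. For EBF2 this was 0 with the 3 kb window, 2 with the 50 kb window, 0 with the median score and 0 to 1 without 1 library. For H3K27ac it was 1 with peaks of 10 kb or less and 1 to 2 without 1 library. Of 82 alternative values of 10 results, 47 stayed within 1.5 times. No paired analysis was possible because the counts come from no test in which a replicate number could enter. The labels do not say that equal numbers pair the libraries, and the bases covered were not compared by number. The caller's threshold limits what can be seen, and the depth of the libraries is unknown.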
